A study of Mus musculus with 19 samples.

Results

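The 10 genes described here, Ppp1r1b, Adcy5, Gnal, Gng7, Rgs9, Rasd2, Rasgrp2, Arpp21, Arpp19 and Ptpn5, encode parts of the signalling machinery that striatal projection neurons share and that joins dopamine receptors to cyclic AMP. They were chosen by name, and all 10 were found among the 54232 genes of the deposited count table. Striatal RNA was sequenced from 7 wild type (WT) mice and from 4 mice each of the knock-in genotypes KI-96, KI-571 and KI-FL, of the strain C57/BL/6, all 6 months old. KI-FL mice carry a knock-in allele of the mouse Htt gene that codes for full-length mutant huntingtin with a 140Q repeat, and KI-96 and KI-571 mice carry the same allele cut short by CRISPR/Cas9 in exon 2 and exon 13, which leaves N-terminal fragments of huntingtin that hold the repeat. According to the methods of the study the knock-in mice were heterozygous, KI-571 goes back to 1 founder and KI-96 to 3 founders, and 1 WT sample was removed without being named, so that all 7 WT mice were kept here. The labels give neither sex nor the sacrifice batch.

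In the striatum, projection neurons receive dopamine at receptors that either raise or lower cyclic AMP. The stimulatory G protein of these neurons is built with the alpha subunit of Gnal and the gamma subunit of Gng7, and it drives the adenylyl cyclase of Adcy5. Cyclic AMP activates protein kinase A, whose substrates include the small phosphatase inhibitors and regulators of Ppp1r1b, Arpp21 and Arpp19. Several of these genes are far more active in the striatum than elsewhere in the brain, and a fall of striatal signalling genes is a well-known feature of Huntington disease models.

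None of the 10 genes passed the test in any knock-in genotype. By edgeR's quasi-likelihood test over 18521 genes, with p-values adjusted by the Benjamini-Hochberg method and a threshold of 0.05, 0 of 10 were called in KI-96, in KI-571 and in KI-FL mice against WT. The background was low as well, since 0.027% of all genes tested were called in KI-96, 0.0324% in KI-571 and 0.194% in KI-FL mice. DESeq2, which called 28, 115 and 509 genes in the same comparisons, also called 0 of the 10. At an unadjusted p under 0.05, 2 of the 10, Gnal and Arpp21, were found in KI-96 mice, where 7.45% of all genes were, and 0 in KI-571 and KI-FL mice, where 7.72% and 16.7% were. All 10 genes were well above the filter for low counts, the smallest count in any mouse being 2894 reads. For each of the 10, the range of each knock-in genotype overlapped that of the WT mice. Over all genes tested, the groups did not overlap for 0.599% (higher) and 0.643% (lower) of genes in KI-96, 0.88% and 0.67% in KI-571, and 2.9% and 2.38% in KI-FL mice.

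The tissue carried the defining genes of striatal projection neurons. The 10 marker genes of these neurons, among them Drd1, Drd2, Penk and Tac1, summed to between 3880 and 6626 CPM in the 19 mice, where CPM are reads per 1000000 reads of a library scaled by edgeR's TMM method, and none was at 0 in any mouse. The libraries held 12669809 to 26388542 reads on genes, with a median of 18202412. Several libraries stood apart. Reads counted on no gene made up 24.2% of KI-96 replicate 3 and 11.1% to 16.0% of each of the other 18 libraries. In KI-FL replicate 4, 3186 of the tested genes were at 0, against 222 or fewer elsewhere. The 6 cortical marker genes summed to 1012 CPM in WT replicate 3 and to 424 CPM or less in the others. Choroid plexus markers summed to 5074 and 5302 CPM in KI-571 replicates 2 and 4 and to 3009 CPM in KI-FL replicate 1. They stayed at 198 CPM or less in the other KI-571 and KI-FL mice and at 405 CPM or less in WT and KI-96 mice. Xist, the transcript of the inactive X chromosome, ran from 886 to 1615 CPM in 6 mice and did not exceed 5.05 CPM elsewhere. These 6 were the whole KI-96 group, KI-FL replicate 2 and WT replicate 1. A difference of KI-96 from WT or KI-FL mice can thus only in part be told apart from a difference of sex. Between KI-96 and KI-571 mice it cannot be told apart at all, since no KI-571 mouse was high in Xist. The part of these libraries in the values below was not tested beyond leaving each mouse out and the covariates named. Htt itself was at 178 ± 9.80 CPM in WT (SD, n = 7), 186 ± 40.1 in KI-96, 124 ± 15.3 in KI-571 and 158 ± 17.5 in KI-FL mice (n = 4 each), and none of these differences passed the threshold (edgeR, adjusted p = 0.0959 for KI-571). Because the deposited counts sum both alleles, Htt does not by itself show which allele a mouse carried.

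These are abundant genes. Per kilobase of annotated exon, Ppp1r1b stood at 566 ± 120 CPM in WT mice and ranked 26 among 18509 tested genes with a known length. Gng7 followed at 295 ± 35.6 CPM per kb (rank 67), then Adcy5 at 227 ± 24.0 (rank 93) and Rasd2 at 226 ± 44.8 (rank 95). Ptpn5 lay at 109 ± 14.9, Rgs9 at 95.6 ± 12.1, Arpp19 at 91.8 ± 14.5, Arpp21 at 70.2 ± 7.99, Gnal at 55.3 ± 7.69 and Rasgrp2 at 23.8 ± 4.60 CPM per kb (all SD, n = 7), the last at rank 1886. In this order the ranges of 1 SD around the mean overlapped for Adcy5 and Rasd2, for Ptpn5 and Rgs9, for Rgs9 and Arpp19, for Arpp19 and Arpp21, and for Arpp21 and Gnal. They did not overlap at the steps after Ppp1r1b, Gng7, Rasd2 and Gnal. The length joins all annotated exons, so that a gene with long, rarely used exons comes out low. Arpp21, with 17428 bases of exon, and Rasgrp2, with 12384, are the members with the longest exons.

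Most of the members were the main form of their family in the WT striatum. Per length, Rasd2 made up 98.8 ± 0.459% of the sum with its relative Rasd1, and Ptpn5 made up 96.3 ± 0.405% of the sum with Ptprr and Ptpn7. Ppp1r1b supplied 89.2 ± 1.70% of the pair with Ppp1r1a, a related inhibitor of protein phosphatase 1. Adcy5 gave 76.4 ± 3.74% of the 9 adenylyl cyclases measured, ahead of Adcy1 with 9.27 ± 2.36%. Gng7 gave 73.0 ± 3.61% of the G gamma genes listed, ahead of Gng3 with 12.2 ± 2.59%. Arpp19 held 69.8 ± 3.08% of the pair with Ensa, and Arpp21 held 67.7 ± 4.55% of the sum with R3hdm1 and R3hdm2. The exceptions were Rgs9, at 28.0 ± 3.07% behind Rgs4 at 44.6 ± 6.12%, and Rasgrp2, at 20.4 ± 2.78% behind Rasgrp1 at 75.7 ± 2.77% (all SD, n = 7). Without division by length Rgs9 was ahead, at a WT mean of 611 CPM against 481 CPM for Rgs4. The share of Adcy5 was 76.9 ± 3.59% in KI-96, 78.5 ± 3.23% in KI-571 and 79.6 ± 1.40% in KI-FL mice, and these values were not tested. No share is given for Gnal, because reads of its relative Gnas fall in a locus of overlapping transcripts and may have been left uncounted.

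**Figure D1:**
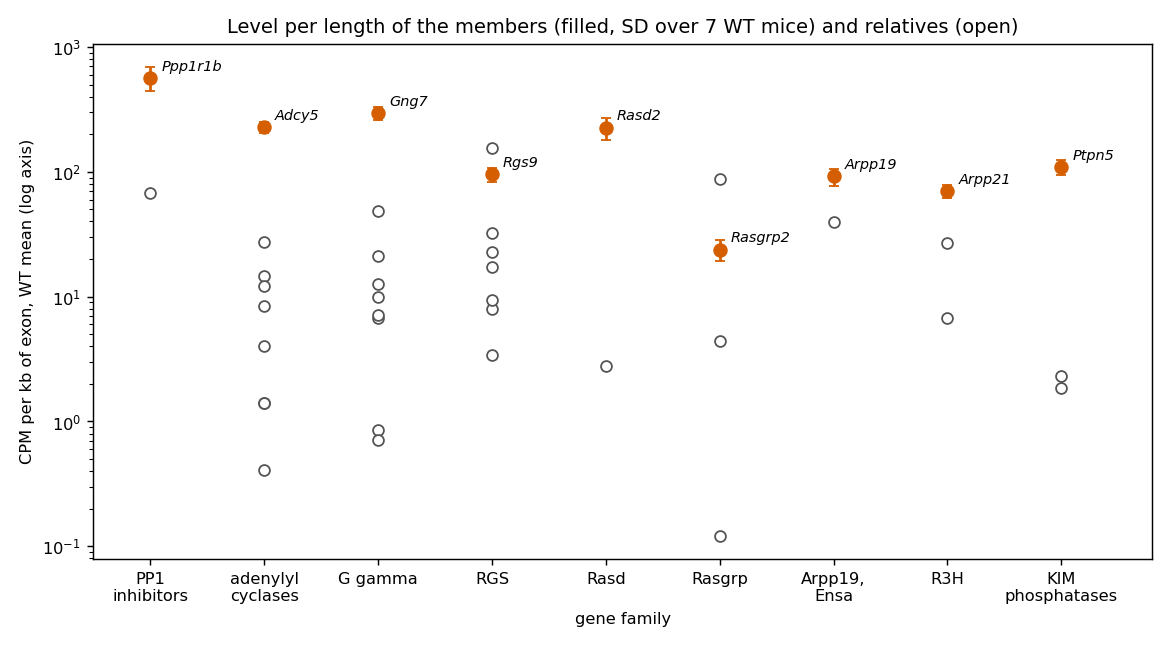
Level per length in WT mice (CPM per kb of annotated exon, log axis) of 9 of the genes (filled points, mean and SD of 7 mice) beside the other genes of each family (open points, means). On this scale Rgs9 and Rasgrp2 lie below the leading gene of their family, and the other 7 lead theirs.

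Gng7 and Rasd2 were the members whose levels followed each other most closely over the mice. The log2 fold changes of Rgs9 lay below 0 in all 3 knock-in genotypes, without passing the test. Its KI-571 median of 610 CPM was above the WT median of 587 CPM. For these 3 genes the 250 bases before the transcription start are shown (RefSeq, GRCm38.p6, 5′ to 3′ on the strand of the gene). Capitals mark matches, on either strand, to the GC box GGGCGG, the CCAAT box CCAAT, the TATA box TATAAA or the cyclic AMP response element TGACGTCA and its shorter form TGACG, which lies within it. The Gng7 window is chr10:81014926-81015175 (minus strand), the Rasd2 window chr8:75213694-75213943 (plus strand) and the Rgs9 window chr11:109298182-109298431 (minus strand).
Gng7: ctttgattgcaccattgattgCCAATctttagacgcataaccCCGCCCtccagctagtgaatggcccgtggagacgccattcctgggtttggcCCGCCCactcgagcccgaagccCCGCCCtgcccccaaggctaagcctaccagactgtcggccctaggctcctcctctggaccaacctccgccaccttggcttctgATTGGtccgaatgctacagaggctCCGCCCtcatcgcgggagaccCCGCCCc
Rasd2: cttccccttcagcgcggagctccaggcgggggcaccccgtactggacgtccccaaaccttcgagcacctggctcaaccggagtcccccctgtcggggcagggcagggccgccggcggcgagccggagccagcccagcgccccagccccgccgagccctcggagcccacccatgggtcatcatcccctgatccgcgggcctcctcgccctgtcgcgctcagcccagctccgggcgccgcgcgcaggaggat
Rgs9: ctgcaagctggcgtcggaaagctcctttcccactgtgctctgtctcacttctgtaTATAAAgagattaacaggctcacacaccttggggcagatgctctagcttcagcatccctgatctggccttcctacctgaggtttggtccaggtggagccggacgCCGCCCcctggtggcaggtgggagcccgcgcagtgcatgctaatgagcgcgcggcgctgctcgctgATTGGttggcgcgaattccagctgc
The Gng7 window held 5 GC boxes and 2 CCAAT boxes, the Rgs9 window held 1 GC box, 1 CCAAT box and 1 TATA box, and the Rasd2 window held none of these motifs although 75.2% of its bases were G or C. A window was found for 8 of the 10 genes. For each the window nearest to the annotated start of the gene was used. The start of that window lay 2216 bases away for Arpp21 and 535 bases away for Rasgrp2, so that these windows may belong to other starts. Of these 8, 4 held a GC box, against 32.7% of all 32851 windows of the same length. A CCAAT box was found in 3 of the 8, against 33.9% of all windows, and a TATA box in 1 of the 8, against 12.4%. The cyclic AMP response element was in 0 of the 8 and in 1.55% of all windows, and its shorter form was in 0 of the 8 and in 17.8% of all windows. A match is a string of letters and not a bound site, and the lack of one says only that these letters are not in this window.

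The genes lie on 8 chromosomes of GRCm38 (GENCODE mouse release 21), and Ppp1r1b and Rgs9 share chromosome 11. Ppp1r1b lies on the plus strand at chr11:98348404-98357796, Adcy5 on the plus strand at chr16:35154877-35305738, and Gnal on the plus strand at chr18:67088216-67226792. Gng7 lies on the minus strand at chr10:80948624-81014945, Rgs9 on the minus strand at chr11:109225355-109298129, and Rasd2 on the plus strand at chr8:75213944-75224113. Rasgrp2 lies on the plus strand at chr19:6399340-6415216, Ptpn5 on the minus strand at chr7:47077795-47133684, and both Arpp21 (minus strand, chr9:112065091-112235938) and Arpp19 (plus strand, chr9:75037614-75060313) lie on chromosome 9. All 10 are annotated as protein coding, and counts are sums over all exons, coding and untranslated. The annotated spans of 7 of them overlap other genes. For Gnal these include the protein-coding genes Chmp1b on the same strand and Mppe1 on the opposite strand, and the span of Ppp1r1b overlaps the opposite-strand transcript 1700003D09Rik. The strand setting of the counting is not given in the sources used here, so that reads of overlapping genes may have been lost or shared.

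The fold changes of the G protein subunits and the cyclase lay above 0 in the 3 knock-in genotypes, without passing the test. Gnal, the stimulatory alpha subunit, ranged in WT mice from 536 to 760 CPM with a median of 611. In KI-96 mice it was at 828, 818, 854 and 532 CPM, in KI-571 mice at 839, 585, 691 and 610, and in KI-FL mice at 799, 764, 686 and 727. Of the 4 KI-96 mice 3 lay above every WT mouse and the 4th below all of them, whereas all 4 KI-FL mice lay above the WT median. On the log2 scale Gnal differed from WT by 0.29 (95% confidence interval 0.02 to 0.57) in KI-96, by 0.14 (-0.14 to 0.42) in KI-571 and by 0.27 (-0.01 to 0.54) in KI-FL mice (edgeR, adjusted p = 0.653, 0.926 and 0.313). The unadjusted p in KI-96 mice was 0.0373 by edgeR. When the log2 CPM of Xist was added as a covariate, the Gnal value in KI-96 mice was 0.16, and without KI-96 replicate 4 it was 0.43. The KI-571 value of Gnal was 0.02 without KI-571 replicate 1.

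Gng7, the gamma subunit that pairs with the Gnal product in these neurons, ranged from 883 to 1345 CPM in WT mice with a median of 1113. It was at 1328, 1394, 1079 and 987 CPM in KI-96 mice, at 1436, 1367, 1394 and 1050 in KI-571 mice and at 1654, 1255, 1210 and 1234 in KI-FL mice. In KI-571 mice 3 of 4 lay above every WT mouse, and in KI-FL mice only replicate 1 did. The log2 fold changes were 0.10 (-0.17 to 0.37) in KI-96, 0.23 (-0.04 to 0.50) in KI-571 and 0.26 (-0.01 to 0.53) in KI-FL mice (edgeR, adjusted p = 0.898, 0.732 and 0.311). Without KI-FL replicate 1 the KI-FL value was 0.13, and without KI-96 replicate 2 the KI-96 value of Gng7 was 0.02.

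Adcy5, which makes most of the cyclic AMP of the striatum, ranged from 1347 to 1845 CPM in WT mice with a median of 1616. It was at 1959, 1995, 1813 and 1223 CPM in KI-96 mice, at 2333, 1663, 1809 and 1248 in KI-571 mice and at 1866, 1669, 1774 and 1840 in KI-FL mice. The lowest values of all 19 mice and the highest were both in truncated-allele mice, and the 4 KI-FL mice lay close together. The log2 fold changes of Adcy5 were 0.10 (-0.21 to 0.41), 0.11 (-0.19 to 0.42) and 0.13 (-0.17 to 0.44) in the genotypes in the same order. The KI-571 value rested on replicate 1 and was -0.06 without it, and the KI-96 value was 0.03 without KI-96 replicate 2. Rgs9 codes for a protein that speeds the switching off of G proteins. It ranged from 525.9 to 753 CPM in WT, from 454 to 661 in KI-96, from 494 to 636 in KI-571 and from 521 to 572 in KI-FL mice, so that 3 of 4 KI-96 mice lay below every WT mouse and all 4 KI-FL mice lay below the WT median of 587. Its log2 fold changes were -0.21 (-0.44 to 0.03), -0.06 (-0.29 to 0.18) and -0.15 (-0.39 to 0.09).

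**Figure D2:**
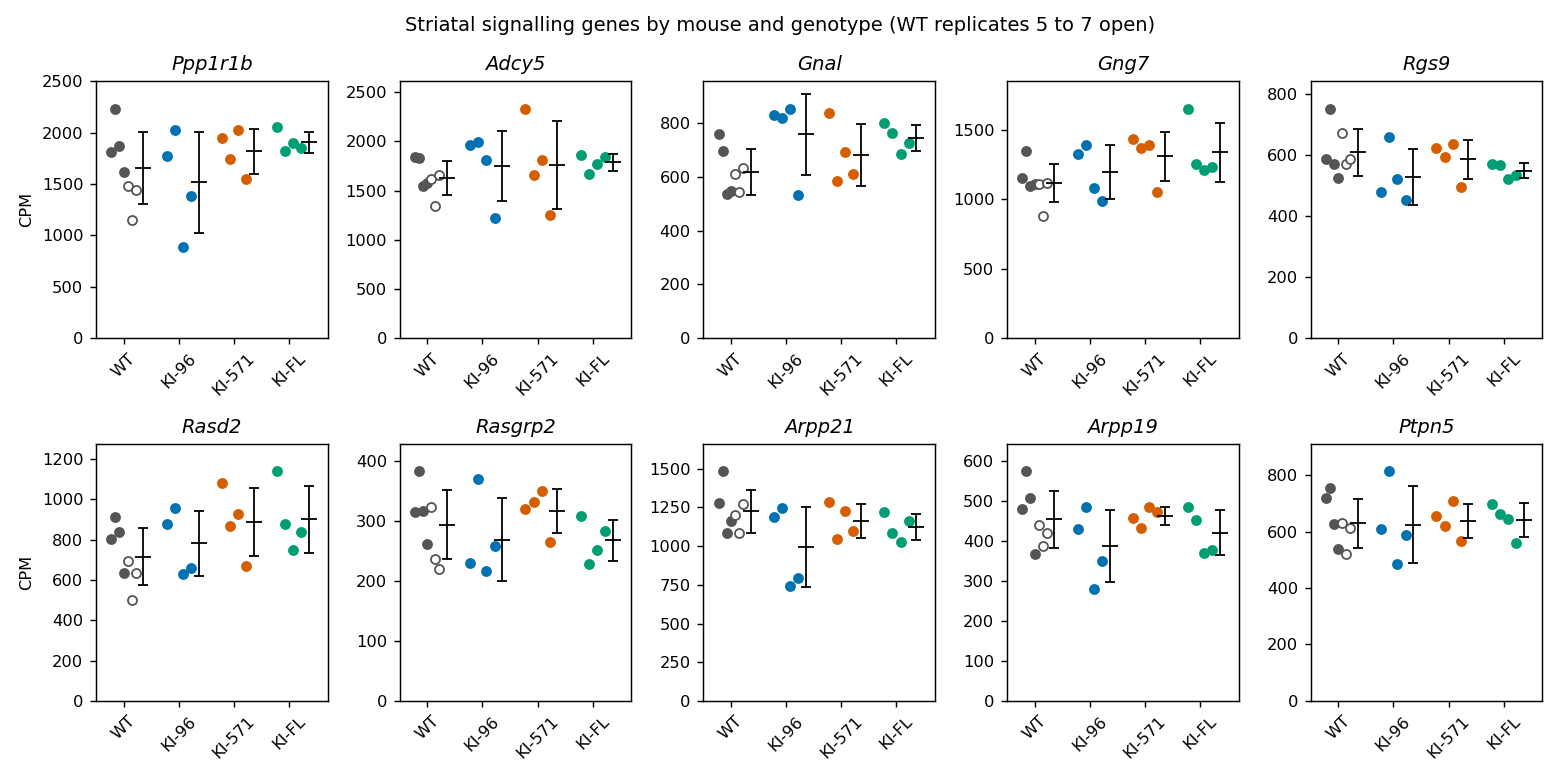
CPM of each gene in each mouse by genotype, with the mean and SD of the group beside the points. WT replicates 5 to 7 are drawn open. In no panel does a knock-in genotype lie clear of the 7 WT mice, and KI-96 mice show the widest spread for 7 of the 10 genes.

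None of the substrates of protein kinase A passed the test. Ppp1r1b codes for the protein phosphatase 1 inhibitor known as DARPP-32 and is a standard marker of striatal projection neurons. It ranged from 1151 to 2234 CPM in WT mice with a median of 1619. It was at 1772, 2022, 888 and 1379 CPM in KI-96 mice, at 1946, 1745, 2030 and 1547 in KI-571 mice and at 2053, 1820, 1897 and 1849 in KI-FL mice. The lowest value of the 19 mice was that of KI-96 replicate 3, the library with the most reads on no gene, and the highest was that of WT replicate 2. The log2 fold changes were -0.13 (-0.50 to 0.24) in KI-96, 0.13 (-0.24 to 0.50) in KI-571 and 0.20 (-0.17 to 0.57) in KI-FL mice (edgeR, adjusted p = 0.908, 0.960 and 0.585). Without KI-96 replicate 3 the KI-96 value of Ppp1r1b was 0.05.

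Arpp21, a kinase A substrate that regulates calmodulin signalling and binds RNA, ranged from 1083 to 1484 CPM in WT mice with a median of 1204. It was at 1191, 1248, 742 and 797 CPM in KI-96 mice, at 1285, 1046, 1225 and 1099 in KI-571 mice and at 1223, 1083, 1027 and 1164 in KI-FL mice. KI-96 replicates 3 and 4 lay far below every other mouse of the study, and replicates 1 and 2 lay among the WT mice. The log2 fold changes were -0.30 (-0.58 to -0.02) in KI-96, -0.07 (-0.35 to 0.21) in KI-571 and -0.12 (-0.40 to 0.16) in KI-FL mice (edgeR, adjusted p = 0.653, 0.973 and 0.667). The unadjusted p in KI-96 mice was 0.0379 by edgeR, and the value was -0.19 without replicate 3, -0.21 without replicate 4 and -0.27 with the share of reads on no gene as a covariate. With each of the 19 mice left out in turn it ran from -0.43 to -0.19. Over the 11 other alternatives it ran from -0.35 to -0.25.

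Arpp19, whose phosphorylated product inhibits protein phosphatase 2A, ranged from 369 to 575 CPM in WT, from 282 to 486 in KI-96, from 434 to 486 in KI-571 and from 370 to 485 in KI-FL mice. The log2 fold changes of Arpp19 were -0.23 (-0.52 to 0.05), 0.02 (-0.26 to 0.31) and -0.11 (-0.39 to 0.18). Without KI-96 replicate 3, the lowest of the 19 mice, the KI-96 value was -0.11, and with each mouse left out in turn it ran from -0.36 to -0.11. Ptpn5 codes for the striatal-enriched tyrosine phosphatase STEP, which acts on MAP kinases and on Fyn. It was the member nearest to WT, with log2 fold changes of -0.01 (-0.28 to 0.26), 0.02 (-0.25 to 0.28) and 0.03 (-0.24 to 0.29). Its levels ran from 519 to 755 CPM in WT, 487 to 814 in KI-96, 566 to 708 in KI-571 and 559 to 698 in KI-FL mice.

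The regulators of small GTPases differed from each other. Rasd2 codes for Rhes, a striatal-enriched small GTPase known to bind mutant huntingtin, and ranged from 499 to 912 CPM in WT mice with a median of 694. It was at 877, 960, 632 and 660 CPM in KI-96 mice, at 1080, 870, 928 and 672 in KI-571 mice and at 1140, 876, 750 and 839 in KI-FL mice. All 4 KI-FL mice and 3 of 4 KI-571 mice lay above the WT median, and their groups overlapped the WT range. Rasd2 had the largest value of the 10 genes in KI-571 mice, 0.31 (-0.03 to 0.65), and in KI-FL mice, 0.33 (-0.01 to 0.67), against 0.13 (-0.22 to 0.47) in KI-96 mice (log2 scale; edgeR, adjusted p = 0.704, 0.311 and 0.899). Without KI-FL replicate 1 the KI-FL value was 0.19. Rasgrp2, a calcium-activated exchange factor for the small GTPase Rap1, ranged from 221 to 384 CPM in WT, from 217 to 370 in KI-96, from 266 to 350 in KI-571 and from 229 to 308 in KI-FL mice. Its log2 fold changes were -0.13 (-0.45 to 0.19), 0.11 (-0.21 to 0.42) and -0.14 (-0.45 to 0.18), and without KI-96 replicate 3 the KI-96 value was -0.04.

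**Figure D3:**
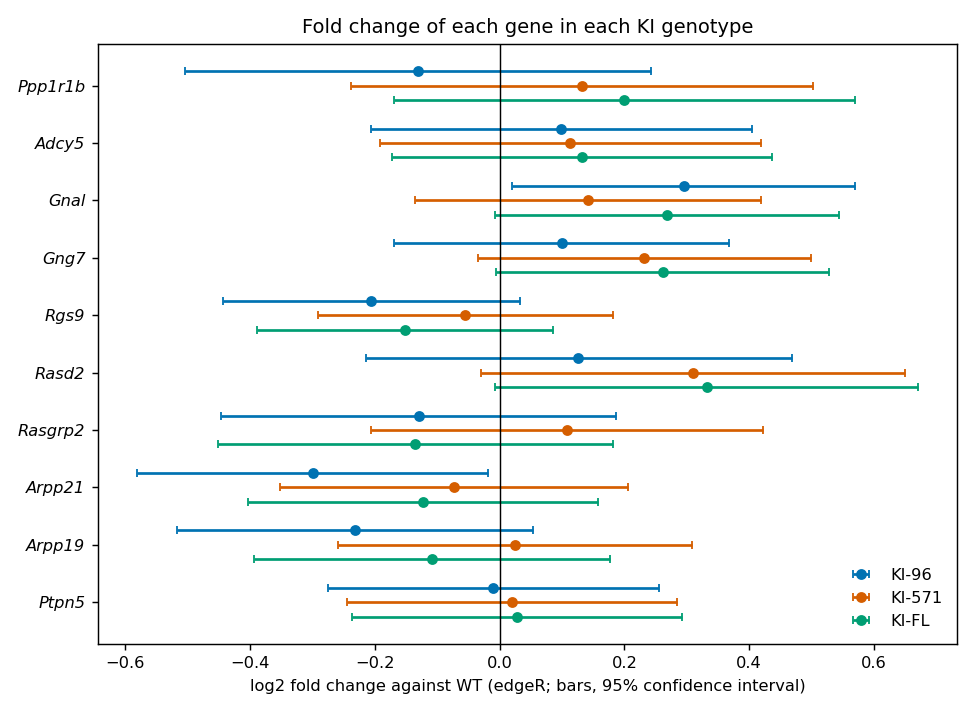
Log2 fold change of each gene for each knock-in genotype over WT, with 95% confidence intervals from edgeR. The intervals of Gnal and Arpp21 in KI-96 mice leave out 0, and those of all other genes and genotypes include it.

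Across the 10 genes the median log2 fold change was -0.07 in KI-96, 0.11 in KI-571 and 0.08 in KI-FL mice, against -0.02, -0.01 and -0.03 over all genes tested. When each mouse was left out, the median of the 10 ran from -0.23 (without KI-96 replicate 2) to 0.07 (without KI-96 replicate 3) in KI-96, from 0.03 (without KI-571 replicate 1) to 0.19 (without KI-571 replicate 4) in KI-571, and from 0.03 (without WT replicate 6) to 0.12 (without WT replicate 2) in KI-FL mice. The value lay above 0 for 4, 8 and 6 of the 10, against 47.2%, 48.3% and 46.1% of all genes. The fold changes of Adcy5, Gnal, Gng7 and Rasd2 lay above 0, and those of Rgs9 and Arpp21 below 0, in all 3 comparisons, which share their WT mice. The share of all genes tested that kept the same direction in the 3 comparisons was not counted, so that these directions are a description only. The outer ends of the intervals over the 10 genes reached from 0.668 to 1.49 as fold changes in KI-96, from 0.783 to 1.57 in KI-571 and from 0.731 to 1.59 in KI-FL mice. Changes beyond these bounds lay outside every interval, and the interval of each single gene was narrower. All intervals but those of Gnal and Arpp21 in KI-96 mice included no change, and neither gene passed the threshold after adjustment. In bulk tissue, fewer cells of a type and less RNA per cell cannot be told apart. The mean of the 3 knock-in genotypes gave 0 of 10 genes called by edgeR, where 0.054% of all genes were called, and 0 by DESeq2. At an unadjusted p under 0.05 it gave 1 of 10, Gnal, with a log2 fold change of 0.23 (0.02 to 0.45, edgeR, adjusted p = 0.344), where 12.9% of all genes passed.

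The knock-in genotypes were not told apart by these genes. By edgeR, 0 of 10 were called when KI-96 was set against KI-FL, 0 for KI-571 against KI-FL and 0 for KI-96 against KI-571, where 0%, 0.0864% and 0.0054% of all genes were called. DESeq2 called 0 of the 10 in each and 38, 88 and 35 of all genes, and at an unadjusted p under 0.05 edgeR gave 0 of the 10 in each, against 8.9%, 8.9% and 5.51% of all genes. The largest values were those of Ppp1r1b, which was lower in KI-96 than in KI-FL mice by a log2 fold change of -0.33 and lower in KI-96 than in KI-571 mice by -0.26, and of Rasgrp2, which was higher in KI-571 than in KI-FL mice by 0.24. The intervals over the 10 genes reached from 0.594 to 1.28 as fold changes for KI-96 against KI-FL, from 0.713 to 1.51 for KI-571 against KI-FL and from 0.623 to 1.38 for KI-96 against KI-571 mice. Without KI-96 replicate 3 the values of Ppp1r1b were -0.13 for KI-96 against KI-FL and -0.08 for KI-96 against KI-571. Xist was high in every KI-96 mouse and in no KI-571 mouse, so that genotype and sex cannot be separated in the latter comparison.

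The direction of several genes turned on which WT mice were used. Ppp1r1b lay between 1619 and 2234 CPM in WT replicates 1 to 4 and between 1151 and 1476 CPM in WT replicates 5 to 7, with no overlap, and the other 9 genes overlapped between these mice. The share of all genes tested that separated these mice was not counted, so that the lack of overlap is a description only. The labels do not say that the numbers mark a batch, but replicates 5 to 7 were also the deepest WT libraries, with 23457270 to 26388542 reads against 17281603 to 18945441. With WT replicates 1 to 4 as the controls, the median of the 10 genes was -0.14 in KI-96, -0.03 in KI-571 and -0.02 in KI-FL mice. It was 0.12, 0.19 and 0.17 with WT replicates 5 to 7. Ppp1r1b in KI-96 mice moved from -0.32 to 0.16 and Rasd2 in KI-FL mice from 0.17 to 0.57, while Rgs9 in KI-96 mice stayed at -0.20 and -0.21. None of the 10 passed the threshold against either set.

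**Figure D4:**
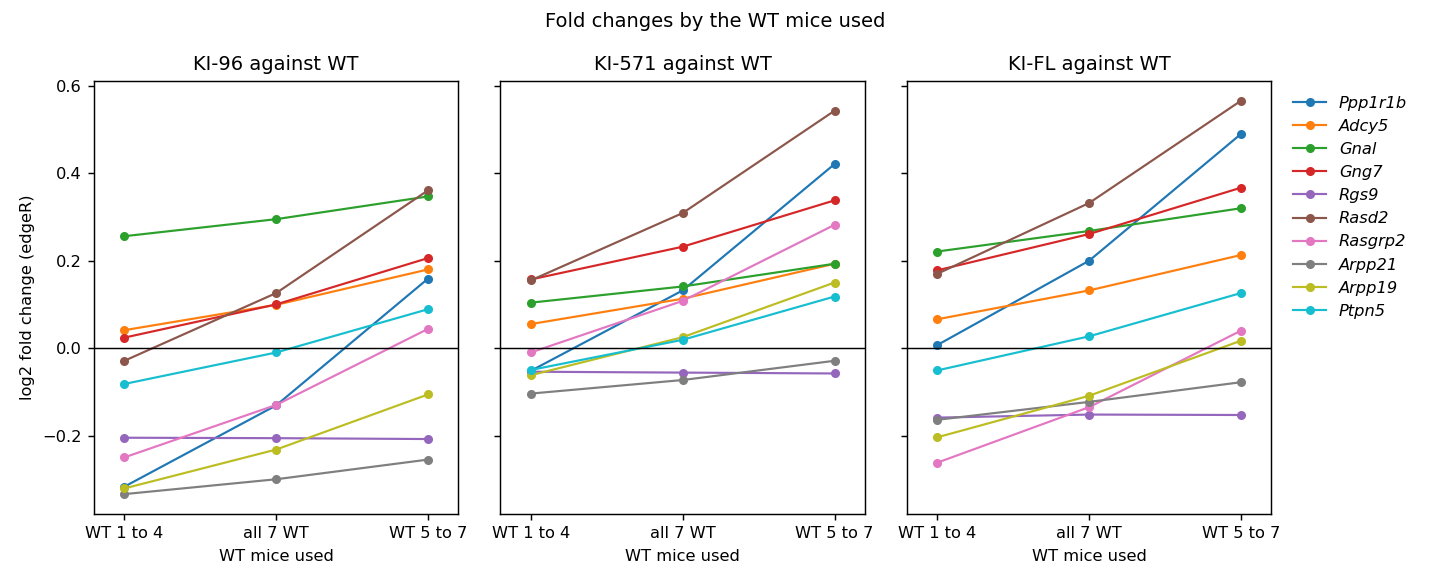
Log2 fold change of each gene (edgeR) of each knock-in genotype with WT replicates 1 to 4, all 7 WT mice and WT replicates 5 to 7 as the controls. Lines of Ppp1r1b, Rasd2, Rasgrp2, Arpp19 and Ptpn5 cross 0 in at least 1 panel, and the line of Rgs9 is nearly level.

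The 10 genes varied together from mouse to mouse. Over the 19 mice the 45 pairs of genes had a median Pearson r of log2 CPM of 0.60, from 0.04 for Gnal with Rasgrp2 to 0.93 for Gng7 with Rasd2, and none was negative. These correlations are a description, since the points share the scaling of each library and the amount of projection neuron tissue in it. After the mean of each genotype was removed, the median r was 0.67, from 0.22 to 0.91. Gng7 with Rasd2 kept an r of 0.88 without the 2 mice farthest from the median of Gng7, and Spearman's rho was 0.92. Adcy5 with Gnal, which act next to each other in the cascade, had an r of 0.81 and a rho of 0.89. Gnal was the gene least like the rest, with an r of 0.42 with the mean of the other 9, against 0.63 to 0.84 for the others.

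The extreme levels fell in a few mice. WT replicate 2 had the highest level of the 19 mice for 5 of the 10 genes, among them Ppp1r1b, Rgs9 and Arpp21. KI-96 replicate 3 had the lowest level for 5 genes, Ppp1r1b, Rasgrp2, Arpp21, Arpp19 and Ptpn5, and the highest for Gnal. KI-96 replicate 4 had the lowest level of Adcy5, Gnal and Rgs9, and WT replicate 6 had the lowest level of Gng7 and Rasd2. The mean z-score of the 10 genes ranged from -1.20 to 1.21 in WT, from -1.28 to 1.09 in KI-96, from -0.65 to 0.95 in KI-571 and from -0.21 to 0.88 in KI-FL mice. It followed the summed markers of projection neurons with an r of 0.89 and a rho of 0.87, and with an r of 0.84 without the 2 mice farthest from the median of the markers. With the share of reads on no gene its r was -0.35 and its rho -0.06, and r was 0.13 without the 2 mice farthest from the median of that share.

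**Figure D5:**
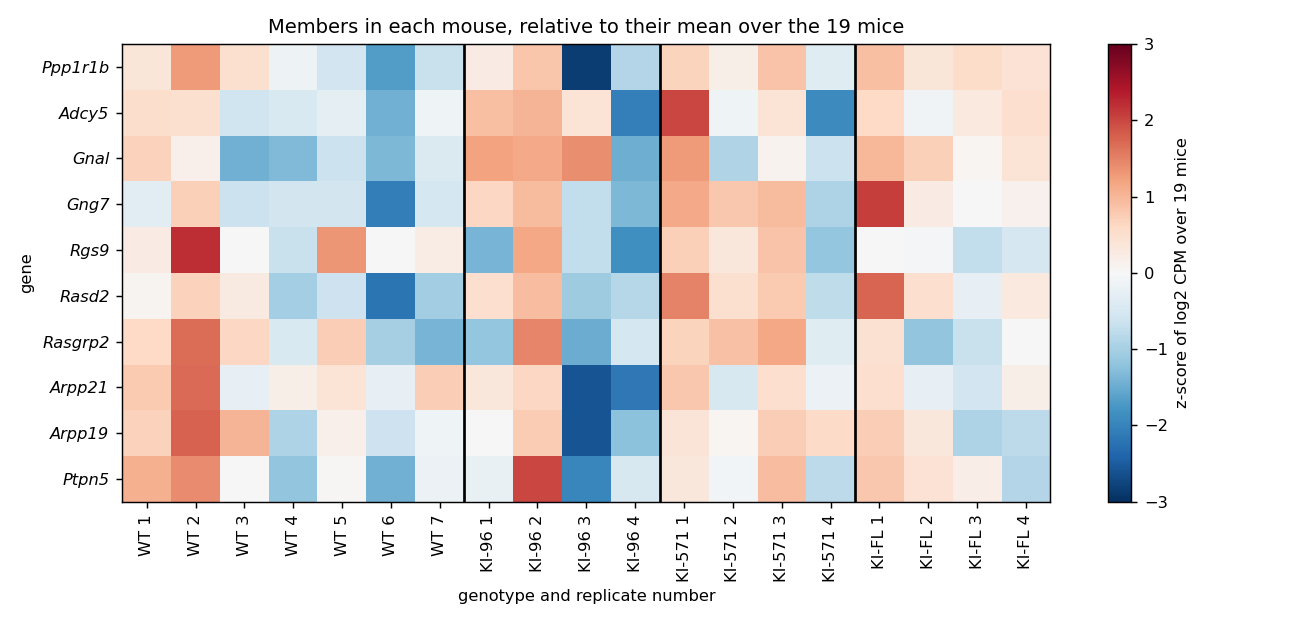
Z-score of log2 CPM over the 19 mice for each gene (rows) and mouse (columns, grouped by genotype). Some columns are mostly of 1 colour, as in WT replicate 2 (mean z-score 1.21) and KI-96 replicate 4 (-1.28). Others are mixed, as in WT replicate 3 (-0.05), with high Rasd2 and low Gnal. KI-96 replicate 3 combines low Ppp1r1b and Arpp21 with high Gnal.

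Among the genes outside the 10 whose log2 CPM was most like the mean z-score of the 10 over the 19 mice were Drd2 (r = 0.93), the dopamine receptor of indirect pathway neurons, Sec14l1 (0.91), the phosphodiesterase gene Pde1b (0.90) and the potassium channel gene Kcnj4 (0.89). Drd2 is also among the 10 projection neuron markers summed above. In the spread between mice of a genotype, the SD of log2 CPM was 0.17 for Rgs9 and 0.32 for Ppp1r1b, the extremes of the 10, against a median of 0.30 over all genes tested.

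Of 106 other genes of the pathway, listed by role, 105 were in the table and 103 were tested. By edgeR, 0 of the 103 were called in any of the 3 genotypes or in their mean. At an unadjusted p under 0.05 there were 7 (4 higher, 3 lower), 6 (2 higher, 4 lower), 12 (8 higher, 4 lower) and 10 (6 higher, 4 lower), or 6.80%, 5.83%, 11.7% and 9.71% of the list, against 7.45%, 7.72%, 16.7% and 12.9% of all genes. DESeq2 called 1 of the list, in KI-FL mice. The receptors of the list, Drd1 and Drd2 among them, gave 0 genes at an unadjusted p under 0.05 in KI-571 and KI-FL mice and 1 of 11, the adenosine receptor gene Adora1, in KI-96 mice.

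The genes of the list with the smallest p in each genotype are given as values, since none passed. In KI-96 mice they were Ppp2r5d, a subunit of protein phosphatase 2A, with a log2 fold change of 0.36 ± 0.13 (SE), Rgs8, a regulator of G protein signalling, with 0.33 ± 0.12, and Adora1 with 0.35 ± 0.14 (edgeR, adjusted p = 0.623, 0.623 and 0.636). In KI-571 mice they were the G protein subunit genes Gng4, with -0.55 ± 0.17, and Gnb4, with -0.40 ± 0.13, and the cyclase gene Adcy8, with -0.57 ± 0.25 (edgeR, adjusted p = 0.269, 0.342 and 0.579). In KI-FL mice they included Gng13, with 1.68 ± 0.51, and Rgs8, with 0.39 ± 0.12 (edgeR, adjusted p = 0.123 and 0.126). Gng13 was a low gene, at 0.553 ± 0.182 CPM in WT and 1.78 ± 1.44 CPM in KI-FL mice. Rgs8, by contrast, was at 219 ± 23.9 CPM in WT (n = 7) and 287 ± 18.9 CPM in KI-FL mice (SD, n = 4), and its lowest KI-FL mouse, at 269 CPM, lay above the highest WT mouse, at 253 CPM, as was the case for 2.9% of all genes tested.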

How the data were processed

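RNA from the striatum of 19 mice was measured by RNA sequencing. The deposited table holds unnormalized counts, which the authors made by trimming adapters with BBduk, aligning to GRCm38 with STAR and counting reads per gene with HTSeq. The software versions, gene annotation and strand option of these steps are not given in the sources used here. The 5 summary lines of HTSeq were kept out of all totals, and the reads on no gene were 11.1% to 24.2% of each library. The table holds 4 columns of no sample described here, which were not used. Of 54232 gene identifiers, 54079 were matched to symbols without the version number, and exon lengths came from GENCODE mouse release 21.

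Genotypes and replicate numbers were taken from the labels, and each sample is a separate mouse. Counts were normalized by TMM, filtered with filterByExpr (minimum count 10, minimum total 15) and fitted over all 19 mice, each genotype with its own mean, by edgeR 4.0.16 (R 4.3.3). The study used DESeq2 with a sacrifice batch, which the labels do not give. P-values were adjusted over the 18521 genes tested. Log2 CPM used a prior count of 2, and 3 counts, the floor for a gene at 0, correspond to 0.114 to 0.237 CPM, which covers counting error only. Alternatives were DESeq2 1.42.0, its size factors, other filters, only the groups compared, Xist, 1 surrogate variable (sva 3.50.0), WT subsets, a replicate block and leaving out each mouse. The share of reads on no gene as a covariate was added after the data had been seen. The procedure was tested on simulated counts.

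The 10 genes and the pathway and marker lists were chosen with earlier results of these data known. Genes named outside the 10 were the 3 pathway genes with the smallest p in each genotype and every one past the threshold, relatives of the members, the 5 genes most like the mean of the 10, and Htt. Rgs4, Rgs6, Adcy1, R3hdm2, Ptpn7, Rgs11 and Akap5 were named after their values were seen. Some genes that this rule names are not reported here. Promoter windows came from RefSeq (GRCm38.p6), and 8 of the 10 genes were matched.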

Additional observations from a re-analysis of the deposited data

Results flagged for a closer look

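In 40 sets of values, 10 genes in 4 genotypes, a mouse lay far from the others of its genotype by Dixon's criterion in 3, and chance alone flags about 1 in 20. Gnal in KI-96 replicate 4 was at 532 CPM, where the other 3 of its genotype lay at 818 to 854 CPM. Gng7 in KI-571 replicate 4 was at 1050 CPM, with 1367 to 1436 CPM in the rest of the KI-571 group. Gng7 in KI-FL replicate 1 was at 1654 CPM, with 1210 to 1255 CPM in the rest of the KI-FL group.

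Among 56 further sets of values that describe the libraries, the mean z-score of the 10 genes and the summed markers of 9 cell types, 5 held such a mouse. Reads on no gene made up 24.2% in KI-96 replicate 3, with 11.8% to 12.7% in the rest of the KI-96 group, and this mouse had the lowest Ppp1r1b, Rasgrp2, Arpp21, Arpp19 and Ptpn5 of all 19. KI-FL replicate 4 had reads on 16384 genes and the rest of the KI-FL group on 23177 to 23950, and 3186 tested genes were at 0, against 134 to 222. The 10 genes of this mouse lay close to those of the other KI-FL mice, with a mean z-score of -0.02. Cortical marker genes summed to 1012 CPM in WT replicate 3, against 41.2 to 96.5 CPM in the other WT mice. Striatal interneuron markers summed to 90.6 CPM in KI-571 replicate 1, against 275 to 297 CPM in the other KI-571 mice. This mouse had the highest Adcy5 of all 19. In KI-96 replicate 3 these markers were lower still, at 88.4 CPM, and Adcy5 was at 1813 CPM, within the WT range. The part of these libraries in the values of the 10 genes was not tested beyond leaving each mouse out and, for the reads on no gene, a fit with that share as a covariate.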

How the results depend on the processing

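The count of 0 of the 10 genes called held in all 7 comparisons under 11 alternatives and when each of the 19 mice was left out. Over 1290 alternative values of 43 fold changes followed, 0 passed the threshold, the lowest adjusted p was 0.145 and 1236 kept their direction. Of the 103 pathway genes, DESeq2 called 1 in KI-FL mice, and the fit of only the groups compared called 3, Akap5 and Rgs8 (higher) and Rgs11 (lower). Over all genes, the 11 alternatives called 0 to 28 genes in KI-96, 0 to 115 in KI-571, 0 to 509 in KI-FL and 0 to 285 in the mean of the 3 genotypes, against 5, 6, 36 and 10, and 0 to 38, 1 to 88 and 0 to 35 in the comparisons of KI-96 with KI-FL, KI-571 with KI-FL and KI-96 with KI-571, against 0, 16 and 1. The cause of these differences was not tested.

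The directions that turned were as follows (log2 fold changes, some close to 0). Against WT replicates 5 to 7 only, KI-96 gave Ppp1r1b 0.159, Rasgrp2 0.044 and Ptpn5 0.089, KI-FL gave Rasgrp2 0.040 and Arpp19 0.017, and the mean of the 3 genotypes gave Rasgrp2 0.122 and Arpp19 0.020. Against WT replicates 1 to 4 only, KI-96 gave Rasd2 -0.029, KI-571 gave Ppp1r1b -0.052, Rasgrp2 -0.010, Arpp19 -0.062 and Ptpn5 -0.050, KI-FL gave Ptpn5 -0.051, and the mean gave Ppp1r1b -0.121 and Ptpn5 -0.061. With the replicate block, KI-96 gave Rasd2 -0.038, KI-571 gave Ppp1r1b -0.044, Rasgrp2 -0.002, Arpp19 -0.043 and Ptpn5 -0.037, KI-FL gave Ptpn5 -0.035, and the mean gave Ppp1r1b -0.118 and Ptpn5 -0.051. Same-numbered mice are different animals and their deviations did not go together (24 pairs, mean correlation 0.02, from -0.13 to 0.29), so that the numbers do not pair them, and the block called 0, 1, 0 and 0 of all genes against WT. Ptpn5 also turned in KI-96 with 1 surrogate variable (0.009) and the share of reads on no gene (0.014), in KI-FL without the filter (-0.004) and with that share (-0.026), and in the mean without the filter (-0.007) and with Xist (-0.015).

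When each mouse was left out, KI-96 values ran from -0.302 to 0.053 for Ppp1r1b and from -0.165 to 0.089 for Ptpn5. KI-571 values ran from -0.055 to 0.246 for Adcy5, -0.097 to 0.018 for Rgs9, -0.020 to 0.090 for Arpp19 and -0.036 to 0.071 for Ptpn5. Ptpn5 ran from -0.028 to 0.087 in KI-FL, and in the mean Ppp1r1b ran from -0.008 to 0.153, Rasgrp2 from -0.117 to 0.022 and Ptpn5 from -0.040 to 0.061. Counting error was small for the 10 genes, which had at least 2894 reads in every mouse.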
